A study of Mus musculus with 8 samples.

Results

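Transcript levels of confluent, quiescent 3T3-L1 cells were compared with those of the same cells while they were dividing. The comparison rests on 4 of the 8 libraries of the series, 2 of quiescence and 2 of proliferation, which were chosen by their stage labels alone. 3T3-L1 is an established clonal line of mouse preadipocytes (strain labelled Swiss albino), fibroblast-like cells that can turn into fat cells. The proliferation libraries came from exponentially growing cells and the quiescence libraries from cells held for 48 h at confluence, both in DMEM with 10% fetal bovine serum and neither after the adipogenic cocktail of insulin, dexamethasone and isobutylmethylxanthine. The other 4 libraries, of clonal expansion (10 h after the start of the cocktail) and differentiation (6 days after it), entered the fit for its estimate of the spread and are compared with each other once, at the end. Each stage has an experiment 1 and an experiment 2 in the labels, which do not tell whether these were separate cultures. The p-values therefore rest on the spread among libraries alone, and that spread may be technical.

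Fibroblasts that run short of space or growth factors leave the cell cycle for a reversible arrest, quiescence, from which serum can recall them. In that state pocket proteins and the DREAM complex hold down E2F targets and the genes of mitosis. Cell contact also keeps the coactivator YAP out of the nucleus, and fibroblasts at rest go on making and remodelling matrix. For 3T3-L1 cells, arrest at confluence is the usual starting point of fat cell formation. Cell number and DNA synthesis are not analysed here. In bulk RNA, fewer cells with a transcript and less transcript per cell cannot be told apart.

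The values are pseudo-counts, read counts that the authors brought to a common library size. They summed to 122413485 and 123940067 in the proliferation libraries and to 127369893 and 125893531 in the quiescence libraries. The 2 libraries of a stage correlated across the 14647 genes tested with r = 0.9947 (proliferation) and r = 0.9929 (quiescence) on the log2 scale. Fibroblast and preadipocyte markers were abundant, with summed levels of 5004940 to 5445680 at proliferation and 7563960 to 8334520 at quiescence. Of the 18 tested, 8 were called higher and 4 lower, against 11.9% and 11.8% of all genes tested. Proliferation 1 was the higher of its stage in 12. Vim had 885292 and 813159 at proliferation and 803016 and 624901 at quiescence. Vim was not called, except with quantile normalization, where it was lower (-0.88). Blood cell markers Ptprc and Tyrobp did not exceed 2.73, the epithelial marker Epcam and the muscle regulator Myod1 were at 0, and Myog and Myf5 did not exceed 2.06. The summed level of the 17 blood cell markers was 4798 to 5451 at proliferation and 5508 to 7179 at quiescence, mostly from Lyz2 and Cd14, and that of the 12 endothelial markers was 825 to 1046 and 968 to 987. Of these, Pecam1 rose (0.96) and Cldn5, Erg and Tie1 did not exceed 3.70. Without proliferation 2, Pecam1 (0.77) lost the call, as did Pecam1 (0.96) without quiescence 1, and Pecam1 (0.95) without quiescence 2. Pecam1 also lost the call under at least 1 setting that kept these 4 libraries. Of 6 blood cell markers that passed the filter, Cd14 alone was called, as higher (0.59). Cd14 was at 0.62 without proliferation 1, 0.55 without proliferation 2 and 0.41 without quiescence 1. It lost the call under at least 1 setting that kept these 4 libraries. The summed level of the 15 epithelial markers was 2280 to 2611 at proliferation and 370 to 498 at quiescence.

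Many genes differed between the stages, in about equal number each way, but the rises reached further than the falls. Of 14647 genes, 1740 were called higher at quiescence (11.9%) and 1732 lower (11.8%), or 23.7% in all, at an adjusted p under 0.05 in limma's moderated test. Among them, 180 rose and 41 fell by at least 4-fold, and 59 rose and 3 fell by at least 8-fold. The median log2 fold change over all genes was -0.0070, which is close to 0. In 8792 of the genes tested (60.0%) the libraries of the 2 stages did not overlap, so a lack of overlap alone does not set a gene apart. Genes called higher held 14.7% and 12.8% of all pseudo-counts in the 2 proliferation libraries and 23.8% and 23.3% in the 2 quiescence libraries. Genes called lower held 15.9% and 17.8% at proliferation and 10.5% and 10.3% at quiescence.

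The 2 proliferation libraries did not stand at the same distance from quiescence. Proliferation 1 exceeded proliferation 2 in 1491 of the 1740 genes called higher at quiescence (85.7%) and was below it in 1485 of the 1732 called lower (85.7%), against 50.5% and 49.5% of all genes tested. The median difference, proliferation 2 minus proliferation 1, was -0.39 on the log2 scale in genes called higher by at least 2-fold, and 0.41 in those called lower by at least 2-fold. Between the quiescence libraries no such order was seen, as quiescence 1 exceeded quiescence 2 in 59.8% of the genes called higher, 60.3% of those called lower and 57.0% of all genes. The calls use the mean of the 2 proliferation libraries and so treat them alike. In most changed genes, then, proliferation 1 lay on the quiescence side of proliferation 2. Without proliferation 2, 660 genes were called higher and 644 lower, and 69 of 106 counts over the gene lists moved by more than 1.5 times. The part that this spread takes in the results below was not tested, and the number of members that follow this order is given with the gene groups.

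**Figure D1:**
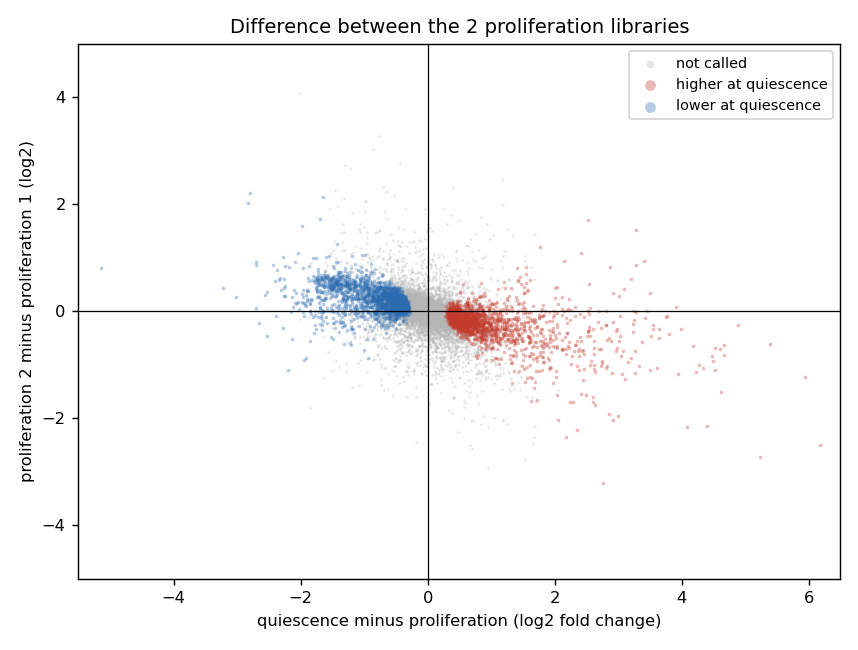
Each point is a gene; the x axis is the log2 fold change of quiescence over proliferation, the y axis the log2 difference of proliferation 2 over proliferation 1. Genes called higher at quiescence (red) lie mostly below 0 on the y axis (1491 of 1740) and genes called lower (blue) mostly above it (1485 of 1732).

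The largest rises included a receptor, enzymes and secreted proteins, of which some were close to absent in dividing cells. Agtr2, the type 2 angiotensin receptor (gene ID 11609, chromosome X, 21061752 to 21065957 in mm9), had 9.21 and 0.813 at proliferation and 320.4 and 299 at quiescence (log2 fold change 6.17 ± 0.63, adjusted p = 0.000218, where ± is the standard error). Clec3b, the secreted protein tetranectin, had 497 and 324 at proliferation and 17162 and 16759 at quiescence (log2 fold change 5.40 ± 0.23, adjusted p = 1.93e-06). In both genes the 2 quiescence libraries stood far above both proliferation libraries, and proliferation 1 was the higher of the latter. Agtr2 had a log2 fold change of 7.42 without proliferation 1 and 4.93 without proliferation 2.

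Dapk1, a calmodulin-regulated kinase linked to cell death, had 123 and 69.8 at proliferation and 2232 and 2524 at quiescence (log2 fold change 4.66). Olfml1, a secreted olfactomedin-like protein, had 29.8 and 9.90 at proliferation and 393 and 518 at quiescence (log2 fold change 4.62). Cpz, a secreted carboxypeptidase, had 57.2 and 28.1 at proliferation and 841 and 746 at quiescence (log2 fold change 4.27). The levels of the 2 quiescence libraries were close to each other in these genes, and those of the 2 proliferation libraries differed more. The transporter Abca8a rose by 4.18 on the log2 scale, and the periostin gene Postn, a matrix protein of growing connective tissue, by 3.01. In all, 6 genes had a mean under 10 at proliferation and of at least 100 at quiescence, among them Agtr2, Car3, Fmo1, Sohlh1 and Mmp27. Sohlh1, a transcription factor known from germ cells, had 6.19 and 3.65 at proliferation and 142 and 150.2 at quiescence (log2 fold change 4.67), and the metalloproteinase gene Mmp27 had 8.28 and 8.79 at proliferation and 135 and 149.8 at quiescence (log2 fold change 3.91). Olfml1 had a log2 fold change of 5.37 without proliferation 1 and 3.87 without proliferation 2.

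Among the largest falls were neuropeptide and prostaglandin genes, matrix-associated growth regulators and keratins. Vip, a neuropeptide that acts through cyclic AMP (gene ID 22353, chromosome 10, 4698927 to 4707323 in mm9), had 150.0 and 263 at proliferation and 4.64 and 4.62 at quiescence (log2 fold change -5.15 ± 0.43, adjusted p = 6.88e-05), and was the single gene with a mean of at least 100 at proliferation and under 10 at quiescence. Cck, the peptide hormone cholecystokinin, had 262 and 336 at proliferation and 69.2 and 36.7 at quiescence (log2 fold change -2.53). Lrp8, a receptor for reelin and apolipoprotein E, had 1530.2 and 2304 at proliferation and 373 and 369 at quiescence (log2 fold change -2.34). In Lrp8 proliferation 2 was the higher of its stage, and in all 3 genes the stages did not overlap. The adhesion molecule gene Mcam fell by 2.13 and the chloride channel regulator gene Clca5 fell by 2.25 on the log2 scale. The largest losses in pseudo-counts were in Fn1, Flna, Actb, Pkm2, Acta2, Scd2, Tubb5, Thbs1, Myh9 and Cav1, and the largest gains in Col3a1, Col1a2, Postn, Col1a1, Ptn, Fstl1, Col6a3, Mmp2, Sparc and Fth1. Without proliferation 2, Col6a3 (0.68), Fth1 (0.50), Myh9 (-0.51), Ptn (0.81) and Tubb5 (-0.49) lost the call, as did Fth1 (0.46) without quiescence 1, and Tubb5 (-0.44) without quiescence 2. Cck, Col6a3, Fth1, Myh9, Ptn, Sparc and Tubb5 also lost the call under at least 1 setting that kept these 4 libraries. Reads of Actb and Tubb5 may be shared with near-identical paralogs and pseudogenes.

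**Figure D2:**
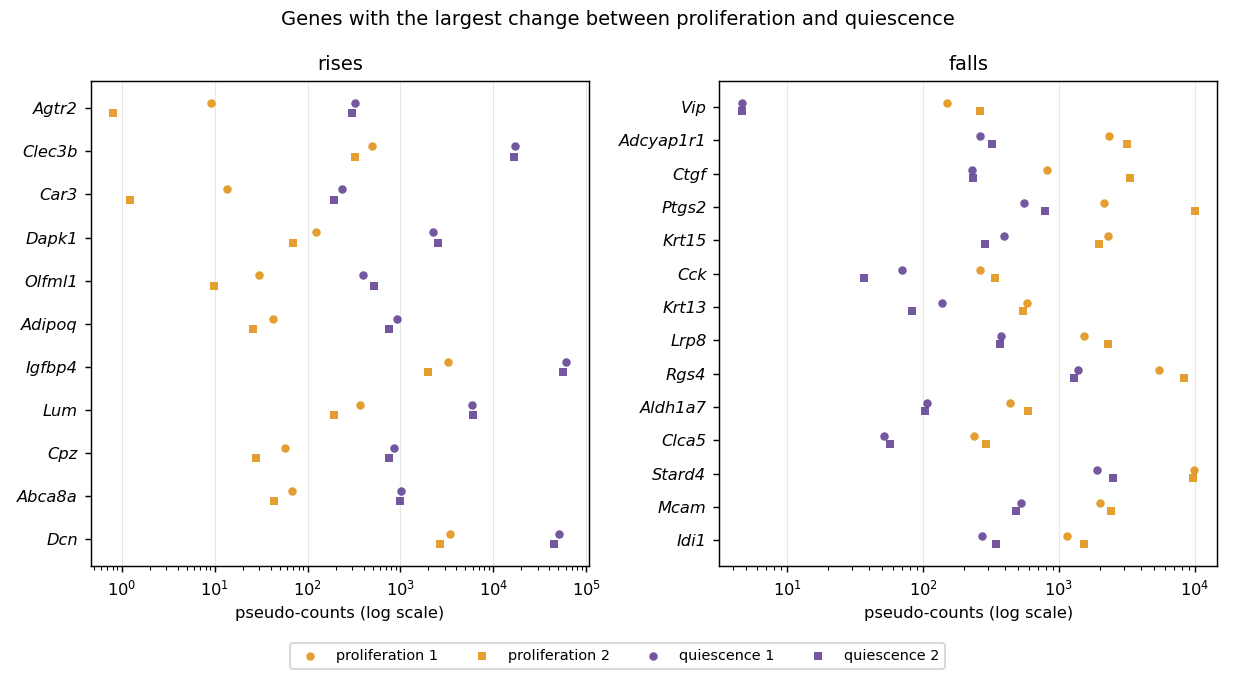
Pseudo-counts (log axis) in each library of the genes described in the text (11 and 14) among the 15 with the largest rise and the 15 with the largest fall, taken from called genes whose stages do not overlap and whose higher stage averages at least 200. Orange is proliferation, purple quiescence; circles are library 1 and squares library 2, and in most of the rises the orange circle lies nearer to the purple points than the orange square does.

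Genes of mitosis fell as a block. Of the 58 tested genes of the spindle, kinetochore and cleavage furrow, 0 rose and 57 fell, with a median log2 fold change of -1.50 against -0.0070 for all genes. Proliferation 2 exceeded proliferation 1 in 58 of the 58. Without proliferation 2 the count of falls was 54, and over the 17 other settings it lay between 50 and 58. Hmmr, a spindle protein that binds hyaluronan, had 5465 and 8253 at proliferation and 1968 and 1952 at quiescence (log2 fold change -1.78 ± 0.18, adjusted p = 0.000207). Espl1, the protease separase that frees sister chromatids, had 8448 and 12833 at proliferation and 2981 and 3276 at quiescence (log2 fold change -1.74 ± 0.17, adjusted p = 0.000191). Birc5, the survivin subunit of the chromosomal passenger complex, had 5780.0 and 8831 at proliferation and 2693 and 1935 at quiescence (log2 fold change -1.65). In each of these proliferation 2 was highest, proliferation 1 next and both quiescence libraries lowest, so the fall was graded in the same order in all. The 1 member that was not called was the condensin subunit Smc4 (-0.39, adjusted p = 0.0544). At an unadjusted p under 0.05 the list had 0 higher and 58 lower. Smc4 was called with the same total per library (-0.43), with the trend on length and GC content removed (-0.33) and without proliferation 1 (-0.59).

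The promoters of these genes share letters that the choice of the list did not use. Genes of mitosis are known to be repressed in resting cells through a CHR element (TTTGAA) and to need CCAAT boxes, which bind NF-Y. RefSeq promoters (GRCm38.p6, 250 bases before to 50 after the start) were matched by gene ID for 11440 of the 14647 genes tested (78.1%), and each motif was searched on both strands. Both motifs were present in 30 of 51 promoters of the spindle list (58.8%), against 5.17% of all 11440. The share was 8.96% in all genes called lower, 15.3% in those lower by at least 2-fold and 4.35% in those called higher. The 2 motifs share no base with each other in the stretches printed. A match is a description of the letters, not evidence of a bound factor. The stretches below come from the 4 spindle genes with the largest falls that hold both motifs before the start. Capitals mark either motif on either strand, of which a pair overlaps in Ube2c, and base -1 is the last before the start.
Espl1 (GRCm38.p6, chr15:102296237-102296283, plus strand, bases -56 to -10): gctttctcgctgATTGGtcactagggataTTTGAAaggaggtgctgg
Cdc20 (GRCm38.p6, chr4:118437344-118437408, minus strand, bases -65 to -1): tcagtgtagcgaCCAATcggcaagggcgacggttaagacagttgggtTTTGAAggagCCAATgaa
Kif11 (GRCm38.p6, chr19:37376325-37376380, plus strand, bases -57 to -2): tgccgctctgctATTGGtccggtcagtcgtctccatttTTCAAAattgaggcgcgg
Ube2c (GRCm38.p6, chr2:164769689-164769917, plus strand, bases -240 to -12): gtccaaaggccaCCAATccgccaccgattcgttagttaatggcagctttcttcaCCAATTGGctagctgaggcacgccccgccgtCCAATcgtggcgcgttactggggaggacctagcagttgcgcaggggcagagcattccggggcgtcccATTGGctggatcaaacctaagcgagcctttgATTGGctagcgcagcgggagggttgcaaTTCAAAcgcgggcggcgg

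These 4 genes were picked by the size of their fall, so their similar factors follow from that choice. Cdc20, the activator of the anaphase-promoting complex, had 11080.1 and 16144 at proliferation and 4733 and 3475 at quiescence (log2 fold change -1.72). Kif11, the motor that pushes spindle poles apart, had 9367 and 14963 at proliferation and 3582 and 3809 at quiescence (log2 fold change -1.68), and Ube2c, the ubiquitin-conjugating enzyme of that complex, had 6951 and 9943 at proliferation and 3154 and 2233 at quiescence (log2 fold change -1.65). No library of quiescence reached either proliferation library.

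Genes of DNA replication fell too, by less. Of 49 tested, 0 rose and 41 fell (median log2 fold change -0.85), and proliferation 2 exceeded proliferation 1 in 49 of them. Without proliferation 2, 29 fell, and 25 to 44 over all other settings. The counts at an unadjusted p under 0.05 were 0 higher and 44 lower. Tk1, thymidine kinase, had 6201 and 9359.7 at proliferation and 2744 and 1988 at quiescence (log2 fold change -1.71 ± 0.21, adjusted p = 0.000484). Mcm5, a subunit of the replicative helicase, had 17880.0 and 25976 at proliferation and 8006 and 6827 at quiescence (log2 fold change -1.54). Cdc6, which loads that helicase at origins, had 2034 and 3025 at proliferation and 881 and 839 at quiescence (log2 fold change -1.53). The order of the 4 libraries was that of the spindle genes. The origin recognition genes Orc1 (-1.18) and Orc6 (-0.48) fell, and Orc2 was not called (-0.35, adjusted p = 0.0735). Of 36 genes of homologous recombination and the Fanconi pathway, 24 fell and 1 rose (median -0.82, 16 and 1 without proliferation 2, proliferation 1 the higher of its stage in 0). Fancd2, the monoubiquitinated effector of that pathway, fell by 1.50 and Brca1 by 1.48 on the log2 scale, and Fancc, a subunit of its core complex, was the 1 that rose (0.65). Without proliferation 2, Orc6 (-0.31) lost the call, as did Orc6 (-0.39) without quiescence 2. Orc6 also lost the call under at least 1 setting that kept these 4 libraries. Orc2 was called with the same total per library (-0.39) and without proliferation 1 (-0.54).

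E2F sites (TTTCCCGC, TTTGGCGC or TTTCGCGC on either strand), known as the common element of S phase genes, were present in 14 of 40 replication promoters (35%) and 7 of 27 of the recombination list (25.9%). The share was 3.41% of all promoters, 5.88% in the spindle list, 6.44% in genes called lower and 2.21% in genes called higher. The stretches are from the 4 replication genes with the largest falls that hold a site before the start. Capitals mark the site, and in Mcm5 a pair of sites on opposite strands overlaps.
Mcm5 (GRCm38.p6, chr8:75109344-75109379, plus strand, bases -165 to -130): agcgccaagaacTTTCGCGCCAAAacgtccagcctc
Cdc6 (GRCm38.p6, chr11:98908001-98908032, plus strand, bases -150 to -119): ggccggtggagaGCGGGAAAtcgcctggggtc
Orc1 (GRCm38.p6, chr4:108579415-108579446, plus strand, bases -39 to -8): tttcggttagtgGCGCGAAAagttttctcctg
Pola1 (GRCm38.p6, chrX:93632274-93632305, minus strand, bases -150 to -119): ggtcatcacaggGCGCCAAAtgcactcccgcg

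The regulators of the cycle did not move as a block. Of 46 tested cyclins, kinases, E2F factors and pocket proteins, 24 fell and 0 rose (median -0.58, 19 falls without proliferation 2), and proliferation 2 was the higher of its stage in 35. At an unadjusted p under 0.05, 27 were lower and 2 higher. Ccna2, cyclin A2, had 13138 and 19978 at proliferation and 5917 and 5011 at quiescence (log2 fold change -1.57 ± 0.18, adjusted p = 0.000335). E2f7, a repressor E2F, had 2923 and 4232 at proliferation and 927 and 1143 at quiescence (log2 fold change -1.77). Ccne1, cyclin E1, had 3687 and 5556 at proliferation and 2568 and 2097 at quiescence (log2 fold change -0.96). The G1 cyclins Ccnd1 (-0.64) and Ccnd2 (-0.68) fell less. E2f1, an activator E2F, had 7410.3 and 8169 at proliferation and 7742 and 6573 at quiescence and was not called (-0.13, adjusted p = 0.49), nor were the kinases Cdk4 (-0.19, adjusted p = 0.273) and Cdk2 (-0.28, adjusted p = 0.108). Among the pocket proteins, Rbl1 (p107) fell (-0.86), and Rb1 (-0.046, adjusted p = 0.824) and Rbl2 (p130, 0.27, adjusted p = 0.106) were not called. Myc had 4695 and 7908 at proliferation and 3062 and 2794 at quiescence (log2 fold change -1.06). Without proliferation 2, Ccnd1 (-0.51) lost the call, as did Ccnd1 (-0.53) without quiescence 2. Ccnd1, Ccne1, Myc and Rbl1 also lost the call under at least 1 setting that kept these 4 libraries. Rbl2 was called with the trend on length and GC content removed (0.31) and without quiescence 1 (0.39). Cdk4 was called with the trend on length and GC content removed (-0.22) and without quiescence 1 (-0.34). Cdk2 was called without proliferation 1 (-0.42).

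Genes with a name in growth arrest went both ways. Of 42 such genes, 9 rose and 6 fell (median 0.072, proliferation 1 the higher of its stage in 25), and without proliferation 2 the counts were 3 and 2. Txnip, an inhibitor of thioredoxin and of glucose uptake, had 18739 and 20992 at proliferation and 50180.4 and 41511 at quiescence (log2 fold change 1.20 ± 0.12, adjusted p = 0.000183). Foxo1, a transcription factor that insulin keeps out of the nucleus, had 3098 and 3679 at proliferation and 5079.5 and 5416 at quiescence (log2 fold change 0.64). Gas1, a membrane protein first found in arrested fibroblasts, had 78972 and 68193 at proliferation and 105574 and 108920.2 at quiescence (log2 fold change 0.55), and the secreted Axl ligand Gas6 was not called (0.48, adjusted p = 0.061). The falls in this list included Gas2l3, a cytoskeletal linker that acts in cell division (-1.73), and the stress genes Gadd45b (-0.82) and Ddit4 (-0.72). Of 25 targets of p53, 10 fell and 1 rose (median -0.35, 0 higher and 6 lower without proliferation 2), and proliferation 1 was the higher of its stage in 17. Ccng1, cyclin G1, had 78605 and 74545 at proliferation and 45665 and 43072 at quiescence (log2 fold change -0.79). Cdkn1a, the inhibitor p21, had 36838 and 36385 at proliferation and 29909 and 25120.1 at quiescence (log2 fold change -0.42), and Cdkn1b, the inhibitor p27, had 12543 and 12152 at proliferation and 12096 and 13694 at quiescence and was not called (0.060, adjusted p = 0.701). The proliferation libraries thus differed in another order in Ccng1 and Cdkn1a than in the mitotic genes. Without proliferation 2, Cdkn1a (-0.43), Ddit4 (-0.68) and Gas1 (0.44) lost the call, as did Cdkn1a (-0.41) and Ddit4 (-0.76) without proliferation 1, and Cdkn1a (-0.29) and Ddit4 (-0.61) without quiescence 2. Cdkn1a, Ddit4, Gadd45b and Gas1 also lost the call under at least 1 setting that kept these 4 libraries. Gas6 was called with quantile normalization (0.50), with a replicate block (0.48), with the trend on length and GC content removed (0.41) and without quiescence 2 (0.65).

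Growth factor genes changed in many members and in both directions. Of 59 ligands and receptor kinases, 22 rose and 14 fell (median 0.21, proliferation 1 the higher of its stage in 35). Without proliferation 2 the counts were 10 and 6. Among ligands, Igf1, a growth factor that acts through the IGF1 receptor, had 8247 and 7551 at proliferation and 24498 and 28965 at quiescence (log2 fold change 1.76 ± 0.13, adjusted p = 3.41e-05). Fgf10, a ligand for FGFR2 known from fat and epithelial development, had 1562 and 2146 at proliferation and 4184 and 6518 at quiescence (log2 fold change 1.51). Bdnf, a neurotrophin, had 3772 and 5346 at proliferation and 2203 and 2096 at quiescence (log2 fold change -1.06). The EGF receptor ligands Ereg (-0.98) and Hbegf (-0.83) also fell, as did Hgf (-0.57), Fgf7 (-0.63), Pdgfc (-0.86) and Csf1 (-0.56).

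Among receptors, Pdgfra, for platelet-derived growth factor, had 54278 and 42783 at proliferation and 106606 and 133555 at quiescence (log2 fold change 1.31 ± 0.17, adjusted p = 0.000631). Fgfr3 had 2463 and 1828 at proliferation and 5746 and 5738 at quiescence (log2 fold change 1.44). Gfra1, the coreceptor for the neurotrophic factor GDNF, had 387 and 370.2 at proliferation and 1193 and 1542 at quiescence (log2 fold change 1.84). Both quiescence libraries were above both proliferation libraries in these 3. Fgfr1 (0.56), Fgfr2 (0.80) and Egfr (0.67) also rose. Pdgfrb (0.31, adjusted p = 0.132) and Igf1r (-0.33, adjusted p = 0.143) were not called. Flt1, a receptor and trap for VEGF, had 1912 and 1915 at proliferation and 591 and 780.4 at quiescence (log2 fold change -1.49), and the semaphorin and VEGF coreceptor Nrp2 fell by 1.03. Of 12 genes of IGF-binding proteins, their partners and proteins that bind IGF2 mRNA, 7 rose and 3 fell (median 0.90, 5 higher and 0 lower without proliferation 2, proliferation 1 the higher of its stage in 7). Igfbp4, which sequesters IGFs, had 3218 and 1992 at proliferation and 60793 and 55734 at quiescence (log2 fold change 4.52 ± 0.18, adjusted p = 1.93e-06). Pappa2, a protease that cuts IGF-binding proteins, had 330.2 and 272 at proliferation and 886 and 1114 at quiescence (log2 fold change 1.73). Igfbp3 had 2077 and 2154 at proliferation and 4816 and 3855 at quiescence (log2 fold change 1.03), and Igfbp6 fell (-0.99). The other falls were of Igf2bp1 (-0.55) and Igf2bp3 (-0.45), which bind mRNA and not the growth factors. Without proliferation 2, Csf1 (-0.45), Egfr (0.46), Ereg (-0.45), Fgfr1 (0.43), Hbegf (-0.43), Hgf (-0.47), Igf2bp1 (-0.50), Igf2bp3 (-0.41) and Igfbp6 (-0.94) lost the call, as did Hgf (-0.66) without proliferation 1, and Ereg (-0.82), Hgf (-0.30) and Igf2bp1 (-0.41) without quiescence 1, and Egfr (0.39) and Hbegf (-0.59) without quiescence 2. Csf1, Egfr, Ereg, Fgf10, Fgfr1, Gfra1, Hbegf, Hgf, Igf2bp1 and Igfbp6 also lost the call under at least 1 setting that kept these 4 libraries. Igf1r was called with the trend on length and GC content removed (-0.27) and without quiescence 2 (-0.58).

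Feedback inhibitors of MAP kinase signalling and early response genes had a median log2 fold change of -0.79, with 11 of 36 lower and 6 higher. As background, early response genes are known to follow serum and handling quickly. Etv4, an ETS factor induced by FGF signalling, had 1398 and 1782 at proliferation and 583 and 514 at quiescence (log2 fold change -1.53 ± 0.20, adjusted p = 0.000565). Dusp8, a phosphatase of stress kinases, had 533 and 815 at proliferation and 201 and 189 at quiescence (log2 fold change -1.75). Fosl1, a Fos family member, had 788 and 1427 at proliferation and 392 and 363 at quiescence (log2 fold change -1.49). Fos itself had 1176 and 19843 at proliferation and 1599.9 and 897 at quiescence, so that the stages overlapped, and was not called (-2.01, adjusted p = 0.158). Egr1 (-0.70, adjusted p = 0.381) and Dusp1 (-1.20, adjusted p = 0.0685) were not called either. Spry1, an inhibitor of receptor kinase signalling, had 2282 and 2173 at proliferation and 3362 and 3255 at quiescence (log2 fold change 0.57) and the cytokine inhibitors Cish (0.81) and Socs2 (0.77) rose. Proliferation 2 was the higher of its stage in 26 of the 36, and 7 fell without it. Without proliferation 2, Cish (0.69), Fosl1 (-1.06) and Socs2 (0.68) lost the call. Cish, Fosl1 and Socs2 also lost the call under at least 1 setting that kept these 4 libraries. Fos was called without proliferation 1 (-4.05). Egr1 was called without proliferation 1 (-1.86). Dusp1 was called with a replicate block (-1.20) and without proliferation 1 (-2.11).

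Most genes of the contractile cytoskeleton were lower at quiescence. Of 41 actin cytoskeleton genes and targets of serum response factor, 24 fell and 1 rose (median -0.44). Proliferation 2 was the higher of its stage in 34, and without it 6 fell. Tagln, the actin-binding protein SM22, had 11462 and 17311 at proliferation and 4645 and 3971 at quiescence (log2 fold change -1.71 ± 0.19, adjusted p = 0.000324). Acta2, smooth muscle actin, had 186619 and 229035 at proliferation and 110560.3 and 98995 at quiescence (log2 fold change -0.98). Actn1, the crosslinker alpha-actinin, had 62323 and 67290.4 at proliferation and 36411 and 36546 at quiescence (log2 fold change -0.83). All 3 were lowest in the quiescence libraries, without overlap. Actb (-0.58), Actg1 (-0.75), Flna (-0.68), Vcl (-0.58) and Zyx (-0.49), which encode actins, filamin and focal adhesion proteins, fell by less than 2-fold, and Cnn3, calponin 3, rose (0.42). The factor Srf (-0.39, adjusted p = 0.062) and Tpm1 (0.17, adjusted p = 0.29) were not called. The serum response element in its CArG form was present in 9 of 37 promoters of this list (24.3%), against 1.32% of all promoters. The share was 1.92% in genes called lower and 1.22% in genes called higher. The list was written to include targets of serum response factor, so its own share does not bear on the change at quiescence. Of the 9, Actg1 and Vcl, which fell and hold the element before the start, are shown, with the element in capitals. Without proliferation 2, Acta2 (-0.83), Actb (-0.42), Actg1 (-0.54), Cnn3 (0.37), Flna (-0.67), Vcl (-0.56) and Zyx (-0.39) lost the call, as did Actb (-0.46) and Zyx (-0.40) without quiescence 2. Acta2, Actb, Actg1, Cnn3, Flna, Vcl and Zyx also lost the call under at least 1 setting that kept these 4 libraries. Srf was called with the same total per library (-0.43), with a replicate block (-0.39), with the trend on length and GC content removed (-0.55), without proliferation 1 (-0.54) and without quiescence 2 (-0.52).
Actg1 (GRCm38.p6, chr11:120348564-120348597, minus strand, bases -102 to -69): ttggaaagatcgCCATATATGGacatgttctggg
Vcl (GRCm38.p6, chr14:20929159-20929192, plus strand, bases -239 to -206): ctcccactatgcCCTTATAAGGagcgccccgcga

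Targets of YAP and TEAD, which cell contact restrains, were mixed. Of 27 tested, 9 fell and 6 rose (median -0.20, proliferation 1 the higher of its stage in 12), and 3 and 4 did without proliferation 2. Ctgf, a matrix-associated growth regulator, had 817 and 3318 at proliferation and 229 and 233 at quiescence (log2 fold change -2.83 ± 0.51, adjusted p = 0.00353). Ankrd1, a nuclear and sarcomeric ankyrin protein, had 1001 and 1890.3 at proliferation and 538 and 497 at quiescence (log2 fold change -1.41). Cyr61, a relative of Ctgf, had 26862 and 105613 at proliferation and 20393 and 19781 at quiescence and was not called (-1.41, adjusted p = 0.0503). In Ctgf and Cyr61 proliferation 2 was several times as high as proliferation 1. In Cyr61 the other libraries lay closer together, while in Ctgf proliferation 1 was itself well above both quiescence libraries. Igfbp3, above, and F3, the tissue factor that starts clotting (0.77), are on the same list and rose. The TEAD letters GGAATG were present in 8 of 19 promoters of the list (42.1%) and 12.4% of all promoters. The share was 12.3% in genes called lower and 13.7% in genes called higher. The list is one of TEAD targets, so its own share does not bear on the change at quiescence. The letters, or their complement CATTCC, are shown in capitals for the members that fell and hold them before the start. Without proliferation 2, Ankrd1 (-0.95) lost the call. Ankrd1 and Ctgf also lost the call under at least 1 setting that kept these 4 libraries. Ctgf had a log2 fold change of -3.84 without proliferation 1 and -1.82 without proliferation 2. Cyr61 was called with pseudocount of 10 (-1.41), with mean of at least 50 (-1.41), with the same total per library (-1.45), with a replicate block (-1.41), with the trend on length and GC content removed (-1.44) and without proliferation 1 (-2.40).
Ankrd1 (GRCm38.p6, chr19:36119950-36120066, minus strand, bases -222 to -106): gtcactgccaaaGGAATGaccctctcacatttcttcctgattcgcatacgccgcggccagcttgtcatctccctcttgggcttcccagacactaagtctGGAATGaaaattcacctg
Crim1 (GRCm38.p6, chr17:78200157-78200186, plus strand, bases -91 to -62): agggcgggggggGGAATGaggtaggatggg
Axl (GRCm38.p6, chr7:25788949-25788978, minus strand, bases -245 to -216): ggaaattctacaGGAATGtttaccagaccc
Amotl2 (GRCm38.p6, chr9:102717727-102717756, plus strand, bases -77 to -48): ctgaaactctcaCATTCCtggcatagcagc

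Crim1, a membrane protein that binds BMPs (-0.51), the receptor kinase Axl (-0.46) and the angiomotin Amotl2 (-0.42) fell less than Ankrd1. Without proliferation 2, Amotl2 (-0.20), Axl (-0.37) and Crim1 (-0.38) lost the call, as did Amotl2 (-0.44) and Crim1 (-0.32) without quiescence 1, and Amotl2 (-0.40) without quiescence 2. Amotl2, Axl and Crim1 also lost the call under at least 1 setting that kept these 4 libraries. Among cadherins, catenins, nectins and connexins, 13 of 44 fell and 3 rose (median -0.21, 1 higher and 7 lower without proliferation 2, proliferation 1 the higher of its stage in 22). The gap junction gene Gja1, connexin 43, had 3147 and 4219 at proliferation and 1212 and 1317 at quiescence (log2 fold change -1.53 ± 0.14, adjusted p = 0.000139). Cdh2, N-cadherin, had 25871 and 24785 at proliferation and 18749.9 and 18951 at quiescence (log2 fold change -0.43), and Cdh11, the cadherin of mesenchymal cells, had 88058 and 78913 at proliferation and 127221 and 147519 at quiescence (log2 fold change 0.72). Gja1 fell in both quiescence libraries, and the cadherins moved in opposite directions. Of 31 genes of integrins and their adaptors, 6 rose and 6 fell (median -0.023, 4 higher and 2 lower without proliferation 2, proliferation 1 the higher of its stage in 18). Itga8, a receptor for nephronectin and fibronectin, had 86.2 and 74.4 at proliferation and 227 and 289 at quiescence (log2 fold change 1.67), and Itga3, a laminin receptor chain, had 3981 and 4852 at proliferation and 2173 and 2099.8 at quiescence (log2 fold change -1.04). Itgb1, the common partner of many alpha chains, was not called (-0.10, adjusted p = 0.495). Ly6a, the stem cell antigen Sca-1, fell (-1.32). Reads of the Ly6 family may be shared among its members. Without proliferation 2, Cdh11 (0.64) and Cdh2 (-0.46) lost the call, as did Cdh2 (-0.39) without proliferation 1. Cdh11 and Cdh2 also lost the call under at least 1 setting that kept these 4 libraries.

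Secreted matrix genes held many of the largest rises. Of 16 small leucine-rich proteoglycans, which bind collagen and growth factors, 10 rose and 0 fell (median 1.13, 8 rises without proliferation 2, 11 higher and 0 lower at an unadjusted p under 0.05, proliferation 1 the higher of its stage in 13). Lum, lumican, had 363 and 190.3 at proliferation and 5850.0 and 6044 at quiescence (log2 fold change 4.49 ± 0.27, adjusted p = 1.26e-05). Kera, keratocan, known from the cornea, had 17.5 and 12.9 at proliferation and 205 and 244 at quiescence (log2 fold change 3.81). Podn, podocan, had 542 and 348 at proliferation and 1472 and 1306 at quiescence (log2 fold change 1.67). Bgn, biglycan, was high in all libraries, with 743552 and 640885 at proliferation and 876228 and 680587 at quiescence, and was not called (0.16, adjusted p = 0.549). Of 25 elastic fibre genes, 13 rose and 4 fell (median 0.39, 9 and 1 without proliferation 2, proliferation 1 the higher of its stage in 17). Eln, tropoelastin, had 696 and 325 at proliferation and 5776 and 5091 at quiescence (log2 fold change 3.51 ± 0.30, adjusted p = 7.32e-05). Mfap2, a microfibril glycoprotein, had 161 and 99.6 at proliferation and 1047 and 961 at quiescence (log2 fold change 2.97). Ltbp4, which tethers latent TGF-beta, had 7173 and 6303 at proliferation and 20087 and 21891 at quiescence (log2 fold change 1.64). The fibrillin gene Fbn1, the backbone of microfibrils, was not called (0.18, adjusted p = 0.324), and the crosslinking enzyme gene Lox rose (0.82). Lox lost the call under at least 1 setting that kept these 4 libraries.

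Basement membrane genes changed in both directions, 11 of 29 higher and 5 lower (median 0.14, 6 higher and 2 lower without proliferation 2), and proliferation 1 was the higher of its stage in 23. Lama4, a laminin chain of mesenchymal tissues, had 36579 and 29151 at proliferation and 88158 and 99509.8 at quiescence (log2 fold change 1.52 ± 0.13, adjusted p = 6.91e-05). Nid2, which links laminin to collagen IV, had 15048 and 12296 at proliferation and 52649 and 58641 at quiescence (log2 fold change 2.03). Lama5, the laminin chain of most epithelia, had 3906 and 3389.8 at proliferation and 1329 and 1575 at quiescence (log2 fold change -1.33). The laminin chains thus moved apart, with Lama4, Lama2 (0.82), Lamb1 (0.97) and Lamc1 (0.63) higher and Lama5 lower. Collagen IV chain Col4a1 was not called (0.32, adjusted p = 0.122). Of 49 genes of matrix proteolysis, 18 rose and 6 fell (median 0.32, 11 and 5 without proliferation 2, proliferation 1 the higher of its stage in 34). Mmp3, stromelysin, had 1302 and 1479 at proliferation and 2616 and 3322 at quiescence (log2 fold change 1.09). Adamts2, which trims procollagen, had 11445 and 10063 at proliferation and 24401 and 27202 at quiescence (log2 fold change 1.26). Plaur, the receptor of urokinase, had 2448 and 4079 at proliferation and 1229 and 1230.0 at quiescence (log2 fold change -1.36). The collagen genes Col1a1 (0.79), Col1a2 (0.73) and Col3a1 (1.69) rose, while Fn1 (-0.60) and Thbs1, thrombospondin 1 (-0.77), fell. Without proliferation 2, Col1a1 (0.73), Col1a2 (0.66), Fn1 (-0.61), Lama2 (0.60) and Thbs1 (-0.66) lost the call, as did Fn1 (-0.60) and Thbs1 (-0.88) without proliferation 1, and Col1a2 (0.65) and Thbs1 (-0.59) without quiescence 1, and Fn1 (-0.55) and Lama2 (0.57) without quiescence 2. Col1a1, Col1a2, Col3a1, Fn1, Lama2 and Thbs1 also lost the call under at least 1 setting that kept these 4 libraries.

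Of 42 Wnt pathway genes, 17 rose and 3 fell (median 0.44, proliferation 1 the higher of its stage in 24), and 8 and 0 did without proliferation 2. Rspo2, a secreted enhancer of Wnt signalling, had 744 and 784 at proliferation and 2169.7 and 2217 at quiescence (log2 fold change 1.52 ± 0.18, adjusted p = 0.000432). Fzd4, a Wnt receptor, had 3676 and 2662 at proliferation and 7449 and 11703 at quiescence (log2 fold change 1.58). Dkk2, a secreted inhibitor, had 145 and 84.6 at proliferation and 416 and 370.2 at quiescence (log2 fold change 1.82). Wnt5a, a ligand, rose less (0.60), and the inhibitor Sfrp1 was below the filter and not tested. Ligands, receptors, enhancers and inhibitors of the pathway were all among the rises. Of 52 genes of TGF-beta, BMP and activin signalling, 14 rose and 14 fell (median 0.020, 7 higher and 7 lower without proliferation 2, proliferation 1 the higher of its stage in 25). The BMP antagonist genes moved apart. Chrdl1, a chordin relative, had 2848 and 1951 at proliferation and 12148 and 11871 at quiescence (log2 fold change 2.35), and Grem1, gremlin, had 23901 and 26797 at proliferation and 5849 and 6369.8 at quiescence (log2 fold change -2.05). Id1, an inhibitor of bHLH factors and a target of BMP signalling, had 22129 and 26972 at proliferation and 9597 and 7708 at quiescence (log2 fold change -1.51). Id2 (-0.85), Id3 (-1.27), Smad6 (-0.92), Smad7 (-1.20) and Smad9 (-1.33), further targets, also fell, whereas the receptor genes Tgfbr1 (0.55) and Tgfbr2 (0.58) rose and Tgfb1 was not called (-0.26, adjusted p = 0.106). Without proliferation 2, Dkk2 (1.43), Id2 (-0.68), Smad6 (-0.77), Tgfbr1 (0.50) and Wnt5a (0.59) lost the call, as did Tgfbr1 (0.61) without proliferation 1, and Id2 (-0.78) without quiescence 1, and Tgfbr1 (0.28) without quiescence 2. Dkk2, Id2, Smad6, Tgfbr1 and Wnt5a also lost the call under at least 1 setting that kept these 4 libraries. Tgfb1 was called with the trend on length and GC content removed (-0.30) and without quiescence 1 (-0.36).

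Of 34 genes of Notch and hedgehog signalling, 8 rose and 4 fell (median 0.21, 3 higher and 1 lower without proliferation 2, proliferation 1 the higher of its stage in 16). Cdon, a hedgehog coreceptor, had 21682 and 19612 at proliferation and 41052 and 60013 at quiescence (log2 fold change 1.27 ± 0.16, adjusted p = 0.00061) and its relative Boc rose by 0.85, while Gli1, a target and effector, fell (-0.67). Notch1 was not called (0.079, adjusted p = 0.65). Dlk1, a Notch-like membrane protein that restrains fat cell formation, had 345246 and 310009 at proliferation and 564051 and 448657 at quiescence (log2 fold change 0.62). Its relative Dlk2 had 498 and 702 at proliferation and 271 and 184 at quiescence (log2 fold change -1.40). The pair moved in opposite directions. Of 55 guidance genes, 20 rose and 5 fell (median 0.27, proliferation 1 the higher of its stage in 36), or 13 and 3 without proliferation 2. The semaphorin Sema5a had 446 and 304 at proliferation and 1916 and 2678 at quiescence (log2 fold change 2.62 ± 0.20, adjusted p = 4.16e-05), and Sema3g had 240.3 and 149.9 at proliferation and 1047 and 762 at quiescence (log2 fold change 2.23). Plxna4, a semaphorin receptor, had 1662 and 1435 at proliferation and 465 and 573 at quiescence (log2 fold change -1.58), and the netrin receptor Unc5b fell by 1.29. Without proliferation 2, Dlk1 (0.54) and Gli1 (-0.63) lost the call, as did Dlk1 (0.46) without quiescence 1. Dlk1, Dlk2 and Gli1 also lost the call under at least 1 setting that kept these 4 libraries.

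Transcription factors of mesenchymal fates were called in 9 (higher) and 7 (lower) of 51 (median 0.14, 4 higher and 3 lower without proliferation 2, proliferation 1 the higher of its stage in 27). Over all genes tested, 11.9% were called higher and 11.8% lower. Osr2, a zinc finger factor of limb and palate mesenchyme, had 973 and 512 at proliferation and 4383 and 4008 at quiescence (log2 fold change 2.57 ± 0.29, adjusted p = 0.000336). Twist1, a bHLH factor that keeps mesenchyme undifferentiated, had 8796 and 7959 at proliferation and 22638 and 18031 at quiescence (log2 fold change 1.27). Sox5, a chondrocyte factor, had 1183 and 1259 at proliferation and 338 and 419 at quiescence (log2 fold change -1.69). Of 36 Hox genes and partners, 8 rose and 3 fell (median -0.00020, 4 higher and 1 lower without proliferation 2, proliferation 1 the higher of its stage in 20). The rises were in Hoxd genes, Hoxd3 (0.97), Hoxd4 (1.13), Hoxd8 (0.58) and Hoxd9 (0.70), and in the partners Pknox2 (1.04), Meis1 (0.40), Meis3 (0.56) and Pbx3 (0.36). The falls were in Hoxb9 (-1.74), Hoxb13 (-0.72) and Hoxc13, which had 3495 and 4308 at proliferation and 1160.2 and 907 at quiescence (log2 fold change -1.92). Without proliferation 2, Hoxb13 (-0.65), Hoxb9 (-1.46), Hoxd9 (0.55), Meis1 (0.34), Meis3 (0.41) and Pbx3 (0.44) lost the call, as did Hoxb9 (-2.01) and Pbx3 (0.27) without proliferation 1, and Hoxb13 (-0.72), Hoxb9 (-1.41), Hoxd9 (0.51), Meis1 (0.38), Meis3 (0.41) and Pbx3 (0.38) without quiescence 1, and Hoxb13 (-0.72) and Pbx3 (0.33) without quiescence 2. Hoxb13, Hoxb9, Hoxd3, Hoxd4, Hoxd9, Meis1, Meis3 and Pbx3 also lost the call under at least 1 setting that kept these 4 libraries.

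Genes of peptide, amine and lipid receptors, with some of their ligands and RGS proteins, included both Agtr2 and Vip, and were called higher in 11 and lower in 19 of 71 (median -0.11, 7 higher and 13 lower without proliferation 2, proliferation 1 the higher of its stage in 35). Ramp2, a partner of the calcitonin receptor-like receptor, had 173 and 71.7 at proliferation and 1182 and 801 at quiescence (log2 fold change 3.11 ± 0.36, adjusted p = 0.000382). Adra2a, an adrenergic receptor that lowers cyclic AMP, had 315 and 302 at proliferation and 1206 and 1485 at quiescence (log2 fold change 2.11). Adcyap1r1, the receptor of PACAP, had 2339 and 3183 at proliferation and 262 and 323 at quiescence (log2 fold change -3.23). Rgs4, which shortens G protein signals, had 5414 and 8301 at proliferation and 1371 and 1297 at quiescence (log2 fold change -2.33), and another member of its family, Rgs3, rose (1.52). Among 50 pumps and channels, 8 rose and 12 fell (5 higher and 5 lower without proliferation 2, proliferation 1 the higher of its stage in 25). The FXYD genes, regulators of ion transport, included Fxyd1, with 495 and 304 at proliferation and 2823 and 2346 at quiescence (log2 fold change 2.73), and Fxyd5, which rose by 1.17 on the log2 scale. Aqp1, a water channel, had 65635 and 76769 at proliferation and 18539 and 19659.8 at quiescence (log2 fold change -1.89). Ramp2 had a log2 fold change of 3.75 without proliferation 1 and 2.48 without proliferation 2.

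Enzymes that handle retinoids, steroids and aldehydes rose in 12 and fell in 3 of 31 (median 0.44, 11 and 2 without proliferation 2, proliferation 1 the higher of its stage in 23). Fmo1, a flavin monooxygenase, had 7.29 and 3.63 at proliferation and 141 and 134 at quiescence (log2 fold change 4.48 ± 0.29, adjusted p = 1.53e-05). Adh1, an alcohol and retinol dehydrogenase, had 195 and 132 at proliferation and 1417 and 1006 at quiescence (log2 fold change 2.89). Sult1a1, a sulfotransferase, had 94.3 and 50.8 at proliferation and 688 and 608 at quiescence (log2 fold change 3.20). Cyp26b1, which degrades retinoic acid, had 11122 and 14092 at proliferation and 4706 and 5187 at quiescence (log2 fold change -1.34), and Aldh1a7 fell (-2.26). In all 4 genes with values the stages did not overlap, as in 60.0% of all genes tested.

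Most genes of sterol and fatty acid synthesis fell, without the order between the proliferation libraries seen in the mitotic genes. SREBP2, cut from its membrane precursor when sterols are low, is known to drive these genes together. Of 39 tested, 32 fell and 1 rose (median -1.34), and 31 to 33 fell over the 17 other settings, 32 without proliferation 2. Proliferation 1 was above proliferation 2 in 22 and below it in 17. Idi1, the isomerase of isoprenoid units, had 1145 and 1518 at proliferation and 273 and 346 at quiescence (log2 fold change -2.10 ± 0.20, adjusted p = 0.000139). Fdps, which builds farnesyl diphosphate, had 19412 and 19970.4 at proliferation and 5347 and 4328 at quiescence (log2 fold change -2.03). Stard4, a sterol carrier, had 9789 and 9752 at proliferation and 1908 and 2515 at quiescence (log2 fold change -2.16). In Fdps and Stard4 the 2 proliferation libraries were nearly equal, and in all 3 genes both stood well above the quiescence libraries. Srebf2, which encodes SREBP2, fell (-0.91), and Srebf1 was the 1 member that rose (0.44). Scap and Insig2, which control the cutting, were not called (0.18, adjusted p = 0.215 and 0.17, adjusted p = 0.286), nor was the sterol exporter Abca1 (0.32, adjusted p = 0.24). A sterol regulatory element (TCACCCCAC, TCACCCCAT, TCACGCCAC or TCACGCCAT, on either strand) was found in 1 of 27 promoters of the list and 0.953% of all, and CCAAT in 19 of 27 (70.4%) against 38.9%. Without proliferation 2, Srebf1 (0.45) lost the call. Abca1 was called without proliferation 1 (0.61).

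Genes of glucose use and of amino acid supply were lower in part. Of 43 genes of glycolysis, the pentose phosphate pathway and glucose uptake, 20 fell and 3 rose (median -0.45), but 2 fell without proliferation 2, the higher of its stage in 32. Pkm2, pyruvate kinase, had 221659.6 and 273239.8 at proliferation and 130542 and 98499.8 at quiescence (log2 fold change -1.12 ± 0.18, adjusted p = 0.0018). Ldha, lactate dehydrogenase, had 75630.4 and 107792 at proliferation and 54278 and 45029 at quiescence (log2 fold change -0.87). Gapdh had 1820.2 and 3001 at proliferation and 1511 and 1033 at quiescence and was not called (-0.90, adjusted p = 0.098). Reads of Gapdh may be shared with its many pseudogenes. Of 51 genes of tRNA charging and amino acid supply, 23 fell and 0 rose (median -0.36, proliferation 1 the higher of its stage in 11), or 6 without proliferation 2, with 1 higher and 34 lower at an unadjusted p under 0.05. Mthfd1l, of mitochondrial folate metabolism, had 7181 and 9501 at proliferation and 4238 and 3711 at quiescence (log2 fold change -1.06), and Psat1, of serine synthesis, fell by 0.94. Without proliferation 2, Ldha (-0.61) lost the call. Ldha, Pkm2 and Psat1 also lost the call under at least 1 setting that kept these 4 libraries.

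Genes of protein synthesis, folding and breakdown were called at unequal shares, beside 11.9% higher and 11.8% lower among all genes tested. The folding, proteasome and antioxidant lists were near these shares or below them. Of 78 cytosolic ribosomal protein genes, 0 were called in either direction by limma (median -0.18, proliferation 1 the higher of its stage in 38), with 0 higher and 11 lower at an unadjusted p under 0.05, and up to 15 were called lower under another setting. Of 50 initiation and elongation factors, 11 fell and 2 rose (median -0.27, 0 and 1 without proliferation 2, 3 higher and 24 lower at an unadjusted p under 0.05, proliferation 1 the higher of its stage in 11), and up to 21 were lower under another setting. Eif4g3, a scaffold of the cap-binding complex, had 11813 and 11527 at proliferation and 16696 and 17667 at quiescence (log2 fold change 0.56). Of 59 genes of folding and secretion in the endoplasmic reticulum, 8 rose and 1 fell (median 0.076, 1 higher and 1 lower without proliferation 2, proliferation 1 the higher of its stage in 18). Creb3l1, a transcription factor cut from that membrane that promotes collagen genes, had 18474 and 17603 at proliferation and 31996 and 29387 at quiescence (log2 fold change 0.77), and Leprel1, a collagen prolyl hydroxylase, had 1438 and 1508 at proliferation and 490.1 and 534 at quiescence (log2 fold change -1.52). Of 39 cytosolic heat shock genes, 14 fell and 1 rose (median -0.34, 5 falls without proliferation 2, 3 higher and 25 lower at an unadjusted p under 0.05, proliferation 1 the higher of its stage in 6). Bag2, a cochaperone, fell by 0.69 and Hspb6, a small heat shock protein, by 0.86. Of 38 proteasome subunits, 4 fell and 2 rose (median -0.27, proliferation 1 the higher of its stage in 6), and 0 were called without proliferation 2. Up to 21 were called lower under another setting. The 2 rises were of immunoproteasome subunits, Psmb8 (1.05) and Psmb10 (0.48). Of 51 glutathione and antioxidant genes, 5 rose and 8 fell (median 0.00059, 1 higher and 1 lower without proliferation 2, proliferation 1 the higher of its stage in 25). Without proliferation 2, Psmb10 (0.42) and Psmb8 (0.87) lost the call, as did Psmb10 (0.54) without proliferation 1, and Psmb10 (0.30) and Psmb8 (0.80) without quiescence 1. Psmb10 and Psmb8 also lost the call under at least 1 setting that kept these 4 libraries.

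Many lysosomal genes rose, most by small amounts. Of 59 tested, 28 rose and 1 fell (median 0.40). Proliferation 1 was the higher of its stage in 47, and without proliferation 2 7 rose. Ctsk, cathepsin K, a collagen-degrading protease, had 3976 and 3696 at proliferation and 8663 and 6887 at quiescence (log2 fold change 1.01 ± 0.14, adjusted p = 0.000996). Ctso, cathepsin O, had 2999.8 and 2418 at proliferation and 5251 and 4969.7 at quiescence (log2 fold change 0.92). Hexa, a subunit of hexosaminidase, had 22259 and 16648 at proliferation and 40577 and 32086 at quiescence (log2 fold change 0.91). The regulator Tfeb was not called (0.27, adjusted p = 0.19), its relative Mitf rose (0.62), and Ctsc, cathepsin C, was the 1 member that fell (-1.21). Of 41 autophagy genes, 5 rose and 0 fell (median 0.036, 1 higher and 0 lower without proliferation 2, 7 higher and 2 lower at an unadjusted p under 0.05, proliferation 1 the higher of its stage in 31). For all genes tested the shares were 11.9% higher and 11.8% lower. Atg10, a conjugating enzyme of autophagosome formation, had 588 and 514 at proliferation and 1100.4 and 902 at quiescence (log2 fold change 0.86). Primary cilia are known to form on arrested fibroblasts, and of 52 genes of the cilium 4 rose and 2 fell (median 0.11, proliferation 1 the higher of its stage in 40), where 0 rose and 0 fell without proliferation 2. Without proliferation 2, Mitf (0.67) lost the call, as did Mitf (0.57) without proliferation 1, and Mitf (0.41) without quiescence 2. Hexa and Mitf also lost the call under at least 1 setting that kept these 4 libraries. Tfeb was called without quiescence 2 (0.43).

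Most complement genes rose. Of 23 components and regulators, 14 rose and 2 fell (median 0.82, 11 and 1 without proliferation 2), and proliferation 1 was the higher of its stage in 19. C3, the central component, had 9896 and 7608 at proliferation and 78588 and 85276 at quiescence (log2 fold change 3.24 ± 0.14, adjusted p = 2.24e-06). C4b, of the classical pathway, had 218 and 184 at proliferation and 1996 and 1782 at quiescence (log2 fold change 3.23). Clu, clusterin, a secreted chaperone that inhibits the terminal complex, had 2539.6 and 1551 at proliferation and 10555 and 6995 at quiescence (log2 fold change 2.11). Serping1, the C1 inhibitor, was not called (0.19, adjusted p = 0.5). Reads of C4b may be shared with the near-identical C4a, which was not called (0.33, adjusted p = 0.301). Of 38 interferon-stimulated genes, 10 rose and 1 fell (median 0.33). Proliferation 1 was above proliferation 2 in 35 of them, and 3 rose without proliferation 2. Iigp1, a GTPase, had 159 and 71.7 at proliferation and 652 and 692 at quiescence (log2 fold change 2.64), and Ifi44 had 265 and 148 at proliferation and 579.7 and 638 at quiescence (log2 fold change 1.61).

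Of 24 MHC class I and antigen presentation genes, 6 rose and 0 fell (median 0.25, 8 higher and 0 lower at an unadjusted p under 0.05). Proliferation 1 was the higher of its stage in 23, and 1 rose without proliferation 2. Reads of the class I genes may be shared among near-identical members. Of 49 chemokines, interleukins and receptors, 7 rose and 6 fell (median -0.055, 2 higher and 1 lower without proliferation 2, proliferation 1 the higher of its stage in 24). These counts stand beside 11.9% higher and 11.8% lower among all genes tested. Il33, a nuclear alarm cytokine of stromal cells, had 109.8 and 86.8 at proliferation and 1209 and 1092 at quiescence (log2 fold change 3.54 ± 0.24, adjusted p = 1.91e-05). Il11ra1, the interleukin 11 receptor, had 12023 and 9799 at proliferation and 24048 and 19486 at quiescence (log2 fold change 1.00), and may share reads with a near-identical copy. Ccl7, a chemokine for monocytes, had 7784 and 13249 at proliferation and 5388 and 4951 at quiescence (log2 fold change -0.98). Of the blood cell markers, Ptprc and Tyrobp were near 0 in all 4 libraries and Cd14 rose, as given above. Ccl7 lost the call under at least 1 setting that kept these 4 libraries.

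Fat cell genes rose in 16 and fell in 7 of 44 (median 0.27), although no cocktail had been given. Proliferation 1 was the higher of its stage in 35, and 14 rose without proliferation 2. Adipoq, the hormone adiponectin, had 42.3 and 25.7 at proliferation and 910.2 and 744 at quiescence (log2 fold change 4.60). Cidec, a protein that fuses lipid droplets, had 35 and 16.3 at proliferation and 353 and 262 at quiescence (log2 fold change 3.61 ± 0.29, adjusted p = 5.29e-05). Cebpa, a transcription factor of fat cells, had 2150.2 and 1604 at proliferation and 4576 and 3867 at quiescence (log2 fold change 1.18). Levels at differentiation were 509058 for Adipoq and 513328 for Cidec on average. Pparg had 5456 and 4685 at proliferation and 6455 and 5884 at quiescence and was not called (0.29, adjusted p = 0.144). The falls included enzymes of lipid synthesis that are also on the sterol list, Scd1 (-1.60) and Acly (-1.11), and Fabp5 (-1.21). Of 35 nuclear receptors, 3 rose and 2 fell (median 0.081, 1 higher and 1 lower without proliferation 2, proliferation 1 the higher of its stage in 20). Vdr, the vitamin D receptor, had 9275 and 11136 at proliferation and 5602 and 5483 at quiescence (log2 fold change -0.87). Of 25 clock genes, 2 rose and 5 fell (median -0.034, proliferation 1 the higher of its stage in 15), and 0 fell without proliferation 2. Among all genes tested, 11.9% were called higher and 11.8% lower. The time of day of harvest is not given in the sources used here. Pparg was called with a replicate block (0.29).

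Among chromatin genes, those of maintenance methylation and histone assembly fell and some of their relatives rose. Of 57 genes of DNA methylation, polycomb and histone supply, 19 fell and 6 rose (median -0.15, 13 and 3 without proliferation 2, proliferation 1 the higher of its stage in 12). Dnmt1, the maintenance DNA methyltransferase, had 26855 and 33461 at proliferation and 16178 and 15277 at quiescence (log2 fold change -0.93 ± 0.12, adjusted p = 0.000524), and Dnmt3a, which methylates new sites, had 7103 and 6383 at proliferation and 12794 and 17286 at quiescence (log2 fold change 1.14 ± 0.14, adjusted p = 0.000441). The polycomb methyltransferase Ezh2 fell (-0.74), and its relative Ezh1 had 5298 and 4506 at proliferation and 7645 and 7899.5 at quiescence (log2 fold change 0.67). Each pair of related enzymes thus moved in opposite directions. Uhrf1, which guides Dnmt1 to new DNA, fell by 1.50, and Asf1b, a histone chaperone of S phase, by 1.55. The linker histone gene H1f0, known to build up in resting cells, was not called (-0.039, adjusted p = 0.838). Ezh2 lost the call under at least 1 setting that kept these 4 libraries.

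**Figure D3:**
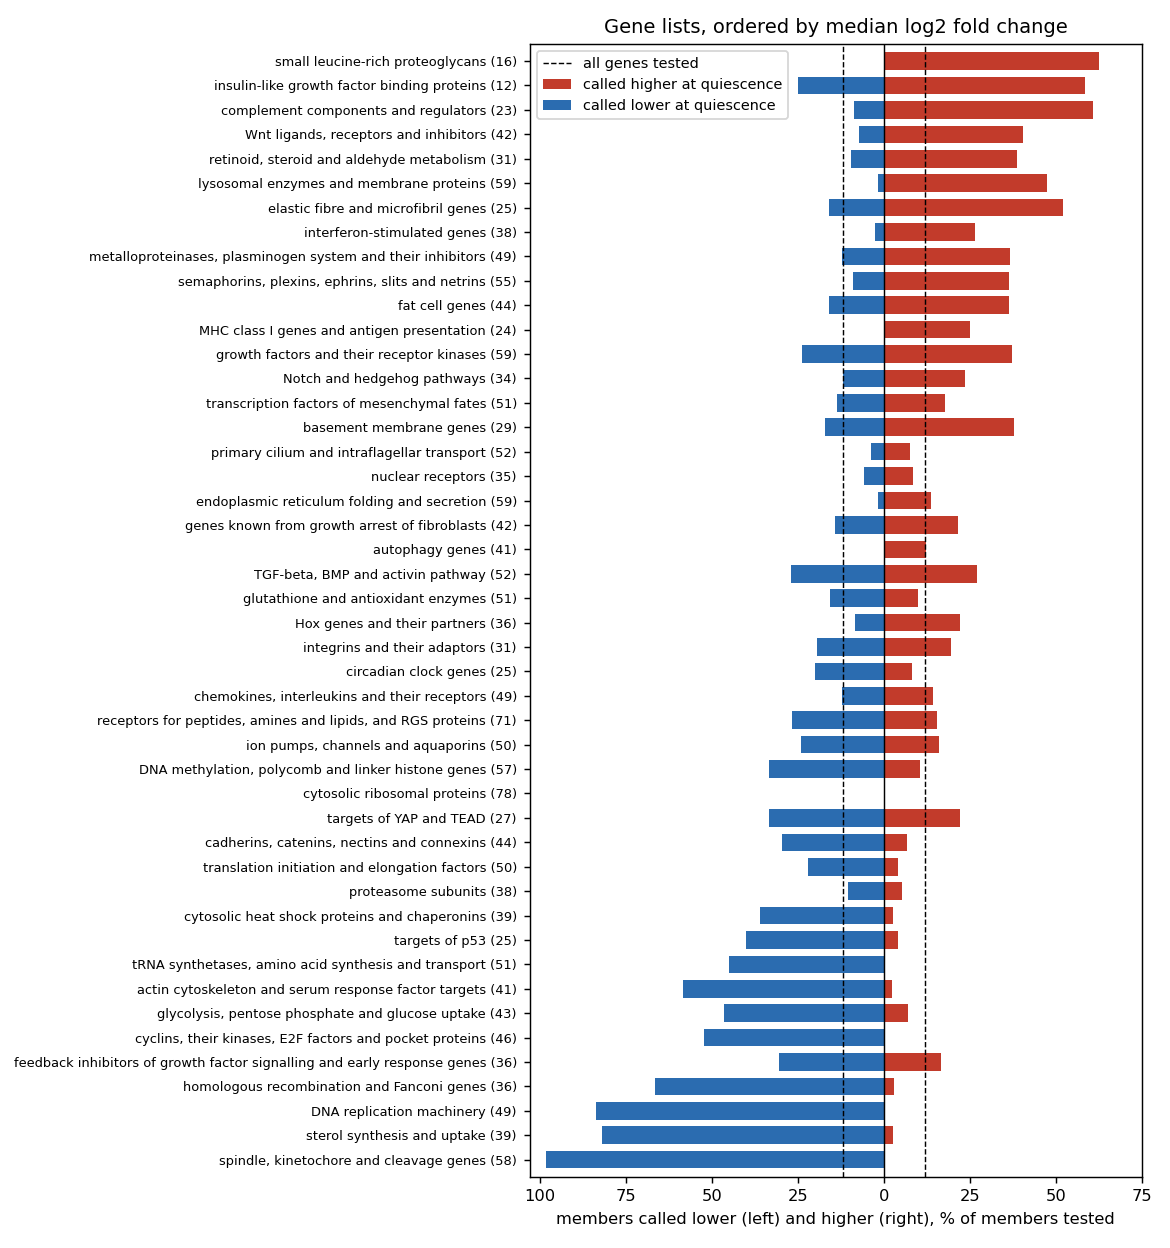
For each gene list (tested members in brackets), the share of tested members called higher (red, right) and lower (blue, left) at quiescence, ordered by median log2 fold change. Dashed lines mark the shares of all 14647 genes, 11.9% higher and 11.8% lower. The spindle (57 of 58), replication (41 of 49) and sterol (32 of 39) lists have the largest shares called lower.

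Some called genes differed widely between the 2 libraries of a stage. The 10 with the largest such difference and a mean of at least 200 were Agtr2, Car3, Ces1d, Ctgf, Gprin3, Junb, Oas2, Olfml1, Pigz and Ptgs2. Ptgs2, the inducible cyclooxygenase, had 2141 and 9994 at proliferation and 553 and 795 at quiescence (log2 fold change -2.80 ± 0.53, adjusted p = 0.00471). Junb, an early response factor, had 10689 and 47193 at proliferation and 8106 and 6303 at quiescence (log2 fold change -1.65). Oas2, an interferon-stimulated enzyme, had 159.9 and 49.2 at proliferation and 305 and 250.3 at quiescence (log2 fold change 1.63). In Ptgs2 and Junb the 2 proliferation libraries stood apart, and in each the lower was still above both quiescence libraries. Without proliferation 2, Gprin3 (-1.86), Junb (-0.58) and Oas2 (0.78) lost the call, as did Gprin3 (-1.75) without proliferation 1, and Junb (-1.83) and Oas2 (1.48) without quiescence 1, and Junb (-1.47) and Oas2 (1.77) without quiescence 2. Ces1d, Gprin3, Junb, Oas2, Pigz and Ptgs2 also lost the call under at least 1 setting that kept these 4 libraries. Ptgs2 had a log2 fold change of -3.91 without proliferation 1 and -1.69 without proliferation 2. Junb had a log2 fold change of -2.72 without proliferation 1 and -0.58 without proliferation 2. Oas2 had a log2 fold change of 2.47 without proliferation 1 and 0.78 without proliferation 2. Ces1d had a log2 fold change of 2.56 without proliferation 1 and 0.90 without proliferation 2. Gprin3 had a log2 fold change of -0.93 without quiescence 1 and -2.68 without quiescence 2. Pigz had a log2 fold change of 2.39 without proliferation 1 and 0.95 without proliferation 2. Car3 had a log2 fold change of 6.59 without proliferation 1 and 3.87 without proliferation 2. The quiescence libraries differed by transcript length. The median of quiescence 2 minus quiescence 1 was -0.27 on the log2 scale in the fifth of genes with the shortest transcripts and 0.26 in the fifth with the longest, where the proliferation libraries differed by -0.013 and -0.0087. The fold change of quiescence over proliferation had medians of -0.0095 and -0.051 in the same 2 sets. With a trend on length and GC content removed, 2205 genes were called higher and 2385 lower.

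Changed genes also lay side by side. Along the chromosomes, 32 runs of at least 4 consecutive tested genes were called in the same direction, 19 higher and 13 lower, with 139 genes in all and 6 in the longest. They were chosen after the values were seen and carry no test. A run of proteoglycan genes, Dcn, Lum, Kera and Epyc with Btg1 beside them (chromosome 10, 96079635 to 97144047 in mm9), rose by 0.36 (Btg1) to 4.49 (Lum). The apolipoprotein genes Apoc2, Apoc4, Apoc1 and Apoe (chromosome 7, 20256928 to 20284515 in mm9) rose by 1.91 to 2.81. Fxyd5, Fxyd7, Fxyd1 and Lgi4 (chromosome 7, 31817742 to 31855954 in mm9) rose by 1.17 to 2.73. Each of these runs thus holds relatives that rose together, at unequal size. The complement protease genes C1ra, C1s and C1rb with Gm5077 (chromosome 6, 124462639 to 124586103 in mm9) rose by 1.38 to 1.72, and the related C1ra and C1rb may share reads. Without proliferation 2, Apoc2 (1.84) and Btg1 (0.30) lost the call, as did Apoc2 (1.86) without quiescence 1. Apoc1, Apoc2, Btg1 and Fxyd7 also lost the call under at least 1 setting that kept these 4 libraries. Apoc4 had a log2 fold change of 2.22 without quiescence 1 and 3.40 without quiescence 2.

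Among the runs that fell were the type I keratin genes Krt36, Krt13, Krt15 and Krt19 (chromosome 11, 99963327 to 100007233 in mm9), with log2 fold changes of -0.96 to -2.71. The genes Ly6e, Ly6i, Ly6a, Ly6c1 and Ly6c2 (chromosome 15, 74785481 to 74942379 in mm9) fell, while on the same chromosome Ly6h and Gpihbp1, relatives of the same fold, rose in another run (chromosome 15, 75258036 to 75509220 in mm9). The caveolin genes Cav1 and Cav2 lay in a run with Tes and Met (chromosome 6, 17015149 to 17523980 in mm9) that fell, with log2 fold changes of -0.38 (Met) to -1.18 (Tes). Gpihbp1, which carries lipoprotein lipase to capillaries, had 7.07 and 0.836 at proliferation and 84.8 and 75.6 at quiescence (log2 fold change 4.40), and the stages did not overlap. Without proliferation 2, Cav2 (-0.49), Krt36 (-0.82), Ly6c2 (-1.52), Ly6e (-0.44), Ly6i (-1.25) and Met (-0.36) lost the call, as did Krt36 (-1.11), Ly6c2 (-0.90) and Ly6e (-0.48) without proliferation 1, and Ly6c2 (-1.19), Ly6i (-1.38) and Met (-0.30) without quiescence 1, and Krt36 (-0.57), Ly6c2 (-1.24) and Ly6e (-0.29) without quiescence 2. Cav2, Gpihbp1, Krt19, Krt36, Ly6c2, Ly6e, Ly6h, Ly6i, Met and Tes also lost the call under at least 1 setting that kept these 4 libraries. Gpihbp1 had a log2 fold change of 5.46 without proliferation 1 and 3.33 without proliferation 2.

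**Figure D4:**
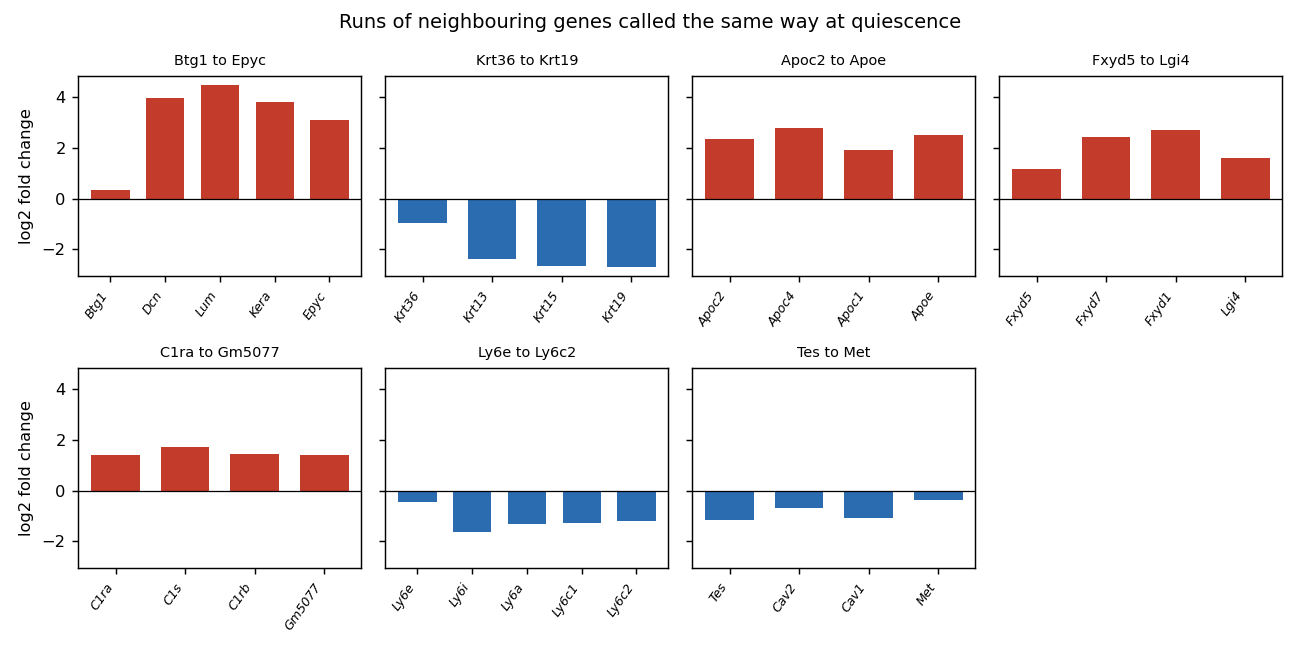
Log2 fold change of quiescence over proliferation (bars, in chromosome order) for 7 runs of neighbouring genes, those of which the text names each member. In each panel all genes were called in one direction. The proteoglycan run from Btg1 to Epyc has the highest median shown, 3.81.

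Differentiation, which follows the divisions of clonal expansion, was compared in the same fit, with none of the 4 libraries shared. There 5390 genes were called higher (36.8%) and 5304 lower (36.2%). Of the 1740 genes higher at quiescence, 942 were also higher at differentiation than at clonal expansion (54.1% of the first list and 17.5% of the second), 436 were lower and 362 not called. Of the 1732 genes lower at quiescence, 1110 were also lower (64.1% and 20.9%), 350 were higher and 272 not called. The cell cycle lists fell both times, as 53 of the 57 spindle genes that fell at quiescence fell again, and 40 of the 41 replication genes did. Other lists turned in part. Of the 32 sterol genes that fell at quiescence, 27 were higher at differentiation than at clonal expansion, and so were 16 of the 20 glycolysis genes. Of the 13 elastic fibre genes that rose at quiescence, 10 were lower at differentiation, as were 9 of 17 Wnt genes and 6 of 14 complement genes. Of these Wnt genes 5 were higher both times, and of these complement genes 4. The interferon-stimulated genes kept their direction, 9 of the 10 higher again. As single genes, Mki67 fell by 1.61 and then by 1.27 on the log2 scale, Idi1 fell by 2.10 and was then higher by 1.94, and Eln rose by 3.51 and was then lower by 0.90. The later comparison also holds the cocktail and 6 days of culture, so arrest and these cannot be told apart in it.

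**Figure D5:**
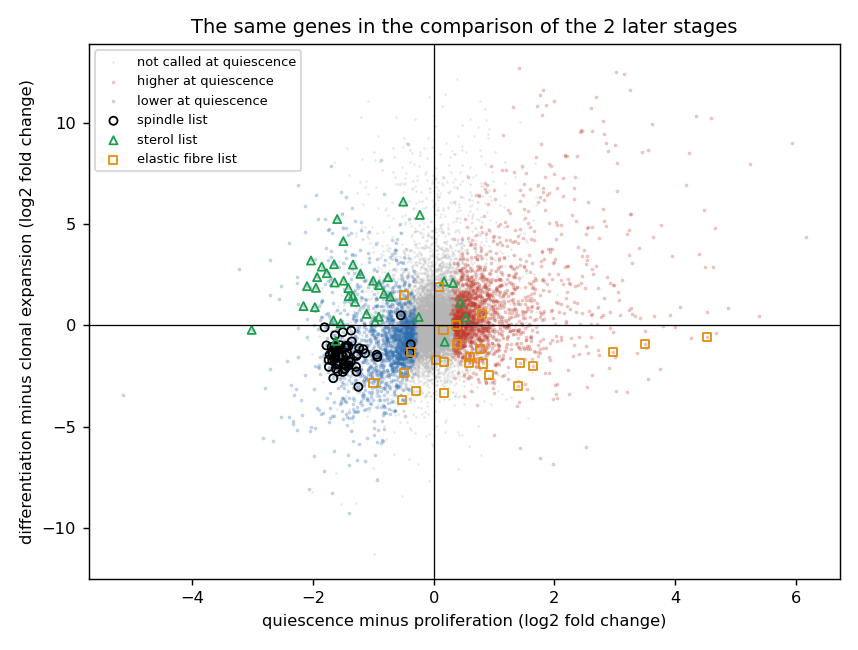
Each point is a gene. The x axis is the log2 fold change of quiescence over proliferation and the y axis that of differentiation over clonal expansion. The spindle list (black circles) lies mostly in the lower left (53 of 58 genes called lower both times) and the sterol list (green triangles) mostly in the upper left (27 of 39). Of the 25 elastic fibre genes (orange squares), 10 were called higher and then lower, in the lower right.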

How the data were processed

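Gene expression was measured by unstranded RNA sequencing (single reads of 100 nt) in 8 libraries of 3T3-L1 cells, 2 for each of 4 stages. The authors deposited pseudo-counts, a signal per gene obtained with edgeR by bringing read counts to a common library size with relative log expression factors, per the file's name and the submitters' processing notes. These notes also name CASAVA 1.8.2 and genome build mm9. The aligner and the gene models are not given in the sources used here. Of 22798 genes, 14647 passed the filter, a mean of 10 or more across all 8 libraries. Values were taken as log2(value + 1) and fitted in all 8 libraries with limma 3.58.1 (R 4.3.3), with a mean-variance trend and no covariate, on 4 residual degrees of freedom. P-values are two-sided and Benjamini-Hochberg adjusted over all genes tested, and a gene was called at an adjusted p under 0.05. Promoter motifs, neighbouring runs and gene lists were counted in Python 3.11.15 (pandas 2.3.3, numpy 2.4.6), and figures were drawn with matplotlib 3.10.9.

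The comparison, the gene lists and the rules were chosen with earlier results of these data known. Named genes are the 15 largest rises and falls, up to 4 members a direction in each list with a mean of at least 200, the 10 largest gains and losses in pseudo-counts, the 10 called genes whose libraries differ most, genes under 10 in 1 stage and of at least 100 in the other, and a fixed list. A few genes that this rule selects are not reported here. The text names 89 further genes, chosen after their values were seen, mostly members of the same lists and neighbouring runs. Alternatives were another pseudocount, filter, scaling and variance trend, a fit of only the 4 libraries, a replicate block, the removal of a length and GC trend, and each library left out.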

Additional observations from a re-analysis of the deposited data

How the results depend on the processing

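The 17 other settings changed the pseudocount, the filter, the scaling, the libraries in the fit, the variance trend and the terms of the model, 1 at a time. The counts of 1740 genes higher and 1732 lower became 953 and 804 with no filter on low values, which tests more genes, and 972 and 970 when only the 4 libraries compared were fitted, which leaves fewer degrees of freedom. Leaving out each of the 8 libraries in turn gave 660 to 1686 higher and 644 to 1850 lower, with both lowest values without proliferation 2, and the cause was not tested. In the other settings both counts stayed within 1.5 times. With each library brought to the same total the counts were 1563 and 2116. For differentiation against clonal expansion, leaving out libraries gave 4741 to 5605 higher and 4642 to 5541 lower.

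The labels give both stages the experiment numbers 1 and 2. Deviations of same-numbered libraries from their stage means correlated across genes with r = 0.0462 between proliferation and quiescence, so the numbers were not taken to pair libraries, and with 2 pairs this shows little. With the number as a replicate block, 1990 genes were higher and 2015 lower, and 5500 and 5431 for differentiation against clonal expansion.

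Of the 268 called genes that the text names, 158 kept their call under each of the 17 settings and 80 lost it without proliferation 2. Col1a2, called at 0.73, was at 0 with quantile normalization, which gives genes of the same rank the same value in every library. Col1a2 was the most abundant gene in each of the 4 libraries compared. Among named genes that were not called, leaving out 1 library turned the sign of Bgn (-0.020 without quiescence 1 to 0.34 without quiescence 2), Cdkn1b (-0.030 without quiescence 2 to 0.15 without quiescence 1), Egr1 (-1.86 without proliferation 1 to 0.46 without proliferation 2), Fos (-4.05 without proliferation 1 to 0.027 without proliferation 2), H1f0 (-0.10 without quiescence 1 to 0.018 without quiescence 2), Notch1 (-0.055 without quiescence 2 to 0.21 without quiescence 1) and Rb1 (-0.16 without quiescence 2 to 0.064 without quiescence 1), and Bgn was at 0 with quantile normalization and Rb1 was at 0.024 with the trend on length and GC content removed.

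With 2 libraries a stage, small changes are the least certain, since log2 fold changes had a median standard error of 0.142. Read depth per library is not given by pseudo-counts, whole reads could not be recovered from them (59.4% of low values lay within 0.05 reads of a whole multiple at the best step), and counting error of low genes is unknown. Fold changes on log2(value + 1) understate those of genes near 0.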

Other observations

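Markers of other lineages were present at low levels and moved in both directions between proliferation and quiescence. Of 15 epithelial markers, 6 passed the filter, and 3 fell and 1 rose (1 higher and 2 lower without proliferation 2). Krt5, a basal keratin, had 101 and 96.4 at proliferation and 27.3 and 29.1 at quiescence (log2 fold change -1.77), beside Krt15 and Krt19, while Krt18 and Krt8 were under 6 in all 4 libraries. Of 16 muscle markers, 9 passed the filter, and 2 rose and 1 fell (1 higher and 1 lower without proliferation 2). Myh11, a smooth muscle myosin, had 217 and 119 at proliferation and 642 and 509.8 at quiescence (log2 fold change 1.82), and Cnn1, calponin 1, had 156 and 240.2 at proliferation and 67.9 and 39.7 at quiescence (log2 fold change -1.88). Both are smooth muscle genes, and they moved in opposite directions. Of 13 neural and glial markers, 8 passed the filter, and 2 rose and 0 fell by limma (2 higher and 1 lower at an unadjusted p under 0.05, 1 higher and 0 lower without proliferation 2). S100b, a calcium-binding protein also known from fat cells, had 558 and 397 at proliferation and 1968 and 1619 at quiescence (log2 fold change 1.92), and Gfap, a glial filament, had 92.9 and 74.4 at proliferation and 194 and 165 at quiescence (log2 fold change 1.10). Of 14 bone and cartilage markers, 9 passed the filter, and 3 rose and 1 fell (2 higher and 0 lower without proliferation 2). Without proliferation 2, Gfap (0.94) and Krt5 (-1.81) lost the call, as did Krt5 (-1.74) without proliferation 1, and Gfap (0.98) and Krt5 (-1.73) without quiescence 1. Cnn1 also lost the call under at least 1 setting that kept these 4 libraries.

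Enzymes against oxidative stress did not share a direction. Mgst1, a glutathione transferase of membranes, had 16634 and 14584 at proliferation and 30288 and 29222 at quiescence (log2 fold change 0.93). Gpx1, a glutathione peroxidase, had 24990.0 and 26101 at proliferation and 19882 and 14739 at quiescence (log2 fold change -0.58), and Nqo1, a quinone reductase, had 18852 and 16712 at proliferation and 12278 and 12505 at quiescence (log2 fold change -0.52). Both subunits of the enzyme that starts glutathione synthesis, Gclc (-0.63) and Gclm (-0.39), fell. Among clock genes, the activator Arntl (-0.34) and the repressors Per2 (-0.50) and Bhlhe40 (-0.59) fell, and Nr1d1, which represses Arntl, rose (0.34). Without proliferation 2, Arntl (-0.33), Bhlhe40 (-0.65), Gclc (-0.40), Gclm (-0.29), Gpx1 (-0.55), Nr1d1 (0.41) and Per2 (-0.49) lost the call, as did Arntl (-0.34), Bhlhe40 (-0.53), Nr1d1 (0.26) and Per2 (-0.51) without proliferation 1, and Nr1d1 (0.26) and Per2 (-0.30) without quiescence 1, and Arntl (-0.28) and Gclm (-0.33) without quiescence 2. Arntl, Bhlhe40, Gclc, Gclm, Gpx1, Mgst1, Nr1d1 and Per2 also lost the call under at least 1 setting that kept these 4 libraries.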
